A study of Rattus norvegicus with 18 samples.

Results

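AMP-activated protein kinase (AMPK) was followed in rat lung through all 8 probe sets, of 15923 on the array, that the platform annotation gives to 5 genes of its subunits and to Stk11, its upstream kinase. A probe set is the group of short probes that reads 1 transcript, and its signal is a brightness on a linear scale, scaled by the authors so that the trimmed mean of every array was 500.1. The 6 genes, of 10411 named on the array, were Prkaa2 and Prkaa1 (catalytic α2 and α1 subunits), Prkab1 and Prkab2 (β1 and β2), Prkag1 (γ1) and Stk11. The members were chosen by the low Prkaa2 signal of all operated lungs, so the comparison of Prkaa2 with control is given as a description without a test.

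AMPK is a heterotrimer. Its catalytic α subunit is switched on when a γ subunit binds AMP or ADP and an upstream kinase, chiefly the Stk11 product LKB1, phosphorylates the activation loop. The β subunit holds the complex together and binds glycogen. The active kinase restrains ATP-consuming synthesis, including signalling through mTOR complexes, and promotes glucose use and autophagy. In most tissues the α1 isoform is widespread, and α2 is best known from heart and skeletal muscle. Its activity is set largely by phosphorylation and nucleotide binding, which arrays of RNA do not measure.

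The arrays held 18 lungs of male Sprague-Dawley rats, all anaesthetised. In ventilated rats with an opened left chest the left lung was deprived of blood flow, warm and in place, by a clamp on its hilum for 2 h, and blood flow was then restored for 3 h or for 30 min. The groups were the clamped left lungs at 3 h and at 30 min of reperfusion, the unclamped right lungs taken with them at 3 h and at 30 min (3 arrays each), and 6 control lungs taken directly after sacrifice. Each rat gave both its left and its right lung, the labels do not give the side of the control lungs, and they name no sham-operated group. In every comparison with control, clamping, chest surgery, ventilation and time under anaesthesia therefore cannot be told apart, and the 4 comparisons share the same control lungs. The labels name no batch of extraction or hybridisation, so a batch that coincides with operated or control lungs cannot be told apart from them either.

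The lungs carried their defining transcripts: Sftpc, the surfactant protein of type II cells, had signals of 10573 to 16252 over the 18 arrays, Ager of type I cells 4391 to 7788 and Pecam1 of endothelium 1338 to 2677. Summed signals of 9 alveolar epithelial markers (of 10 listed) were 42722 to 55351 in left 3 h, 51744 to 62459 in left 30 min, 58321 to 69577 in right 3 h and 53100 to 55875 in right 30 min lungs, against 59788 to 64455 in control lungs. Of these 9 markers 4, 1, 2 and 4 were called lower, in that order of groups, against 24.1%, 9.52%, 12.6% and 6.33% of all genes. Of 4 erythroid markers 3 were called higher in right 30 min lungs, where 5.93% of all genes were called higher. Their sums were 16974 to 24602 there, against 12421 to 17051 in control lungs. Summed signals of 6 neutrophil markers (of 9 listed) were higher in each operated group than in control. They were 8716 to 22570 in left 3 h, 5433 to 17198 in left 30 min, 8608 to 12987 in right 3 h and 6770 to 11212 in right 30 min lungs, against 1346 to 3501 in control lungs. The part of these cell types in the results below was not tested. In tissue RNA of this kind, fewer cells of a type and less RNA per cell cannot be told apart. The ratio of 3' to 5' signal of actin, a sign of RNA integrity, was 4.81 and 2.30 in left 30 min replicates 1 and 3 and 2.93 in right 30 min replicate 3, and 1.31 to 1.78 elsewhere. Median signals of the arrays lay between 232 and 284.

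The catalytic subunits are encoded on different chromosomes, Prkaa2 on chromosome 5 and Prkaa1 on chromosome 2, and the 250 bases before each start (RefSeq, GRCr8) are shown because these 2 genes encode the alternative catalytic subunits. The Prkaa2 stretch is chr5:125108325-125108574 on the minus strand and the Prkaa1 stretch is chr2:55967525-55967774 on the plus strand. Capitals mark every match on either strand to the GC box GGGCGG.

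Prkaa2: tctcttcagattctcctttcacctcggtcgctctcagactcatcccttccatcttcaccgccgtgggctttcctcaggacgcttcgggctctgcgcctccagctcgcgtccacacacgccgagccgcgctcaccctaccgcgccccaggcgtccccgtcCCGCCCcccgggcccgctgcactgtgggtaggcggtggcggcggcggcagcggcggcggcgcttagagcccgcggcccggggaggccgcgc
Prkaa1: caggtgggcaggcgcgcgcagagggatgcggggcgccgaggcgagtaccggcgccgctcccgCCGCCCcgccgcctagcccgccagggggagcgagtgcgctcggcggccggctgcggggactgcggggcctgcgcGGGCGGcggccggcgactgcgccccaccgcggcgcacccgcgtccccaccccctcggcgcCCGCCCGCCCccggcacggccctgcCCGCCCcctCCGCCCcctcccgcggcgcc

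Both stretches are rich in G and C, 72.8% for Prkaa2 with 33 CG pairs and 86.4% for Prkaa1 with 45, against a median of 52% over 27457 rat promoters of the same length. Prkaa2 held 1 GC box and Prkaa1 held 6 matches, 2 of them overlapping. A GC box occurred in 32.4% of all such promoters. Of the 6 motifs searched on both strands, the other 5 were a CCAAT box (CCAAT, in 34.3% of promoters), a TATA box (TATAAA, 13.1%), a cyclic AMP response element (TGACGTCA, 1.70%), an AP-1 element (TGANTCA, 6.36%) and a forkhead element (GTAAACA, 3.25%), and these were without a match in both windows. All 6 genes were found in the promoter table. Prkag1 held 2 GC boxes, Prkab2 held 1, Prkab1 held none, and Stk11 held 3 CCAAT boxes and no GC box.

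Prkaa2 was read by 1 probe set, whose place in the transcript was not looked up here. Its signal was 6.54, 6.64 and 9.17 in left 3 h lungs, 6.63, 6.46 and 7.42 in left 30 min lungs, 11.2, 9.44 and 9.51 in right 3 h lungs and 9.67, 7.78 and 11.4 in right 30 min lungs, against 102, 213, 237, 321, 314 and 310 in control lungs. Every operated lung lay below every control lung, and the highest operated signal was far under the lowest control. Within their own arrays the Prkaa2 probe set stood between the percentiles 3.62 and 5.65 of all signals in operated lungs and between 25.02 and 54.8 in control lungs. The 5th percentile of all signals was 8.82, so the operated values lie at the bottom of the range of the array.

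The group means were 7.45 ± 1.49 in left 3 h, 6.83 ± 0.513 in left 30 min, 10.04 ± 0.975 in right 3 h and 9.61 ± 1.80 in right 30 min lungs (SD, n = 3 each), against 249.5 ± 85.1 in control lungs (SD, n = 6). No fold is given, because signals this low have no reliable ratio. On the log2(signal + 25) scale used for all tests, where 25 is added to damp the noise of dim probe sets, the difference from control was -3.01 in left 3 h, -3.03 in left 30 min, -2.89 in right 3 h and -2.91 in right 30 min lungs. These sizes are set in part by the value added.

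Testing required signals above 173.6, the 40th percentile of all signals, on 3 or more arrays. Prkaa2 passed through control lungs alone, since 5 of 6 controls and 0 of 12 operated lungs exceeded it. Lack of overlap between the 12 operated and 6 control lungs was not rare as such: 4.15% of tested probe sets had every operated lung below every control lung, and 3.14% had every one above.

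**Figure D1:**
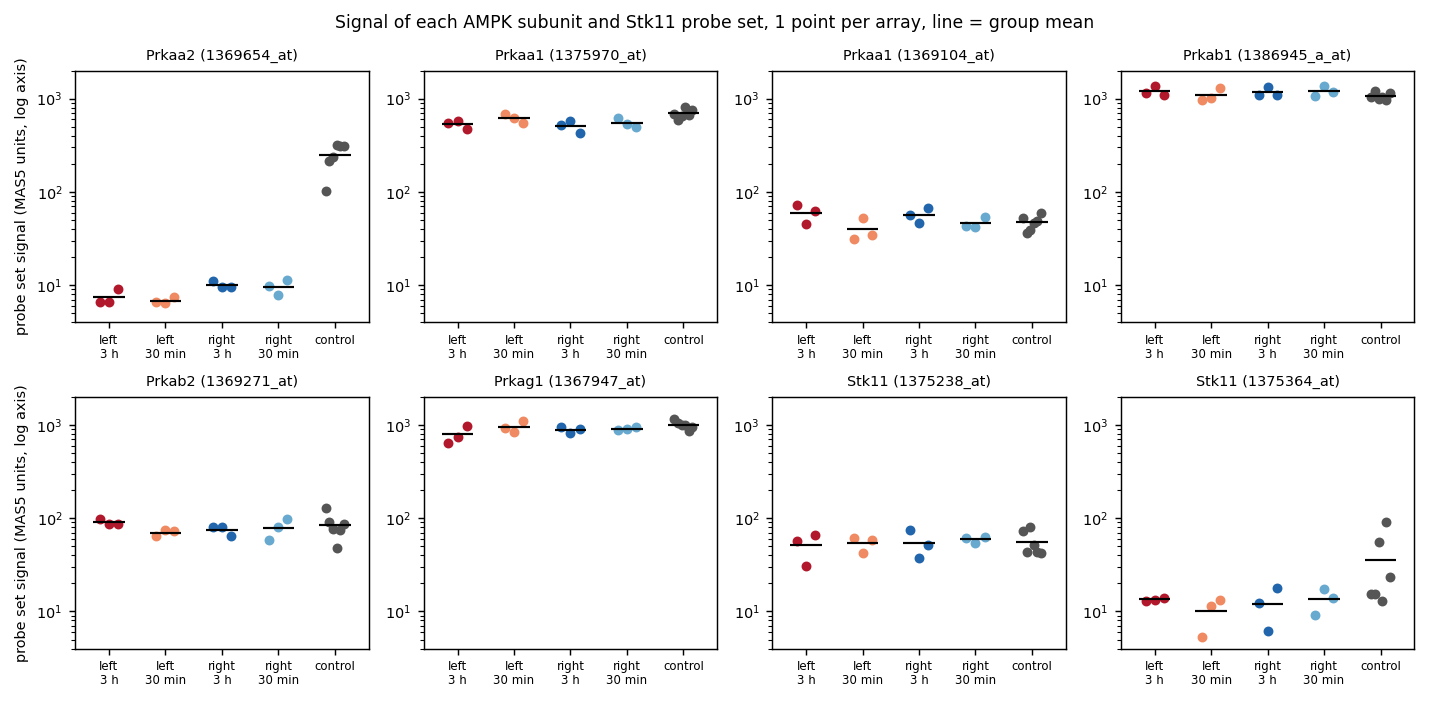
Signal of each of the 8 probe sets (log axis, scaled array units) in left 3 h, left 30 min, right 3 h, right 30 min and control lungs, 1 point per array with a line at the group mean. Prkaa2 lies at 6.46 to 11.4 in operated lungs and at 102 to 321 in control lungs, whereas in the other panels the operated points lie within or close to the control range.

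Among the operated lungs, each left lung had a lower Prkaa2 signal than each right lung at 3 h and at 30 min, a pattern that 9.38% of tested probe sets showed at 3 h and 6.54% at 30 min. The difference between left and right on the log2(signal + 25) scale was -0.11 at 3 h and -0.12 at 30 min. Limma, a linear model fitted over all probe sets with p-values adjusted by the Benjamini-Hochberg method over all 10533, called neither. Its standard error of 0.26 rests largely on the control lungs, where the SD on this scale was 0.554 against 0.0773 over the 12 operated lungs, and signals far below the added 25 can hardly vary on it. The lack of a call therefore does not say whether Prkaa2 differed between operated groups.

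The α2 isoform is known from striated muscle, and samples of rat lung can hold heart muscle of the pulmonary veins, so its signal was set beside 14 cardiac muscle markers, of which 9 were bright enough to be tested. Their summed signal was 298 to 527 in left 3 h, 394 to 2875 in left 30 min, 2643 to 13773 in right 3 h and 424 to 5920 in right 30 min lungs, against 326 to 4369 in control lungs. The sums of operated and control lungs overlapped. Against control, 2 of the 9 markers were called higher in right 3 h lungs (7.75% of all genes) and 0 in the other groups. The part of heart muscle in the Prkaa2 values was not tested. Of 13 markers on the array 4 were too dim to be tested, Nppa among them. Of 8 skeletal muscle markers 3 were tested, and their summed signal was 1242 to 1847 in operated lungs, against 1303 to 1918 in control lungs. Of these 3, 1 was called higher in left 3 h and 1 in left 30 min lungs, against 13.5% and 8.64% of all genes. Between left and right lungs at 3 h, 3 of 9 cardiac and 1 of 3 skeletal markers were called lower in left lungs. Of all probe sets, 2.28% were called there in either direction.

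**Figure D2:**
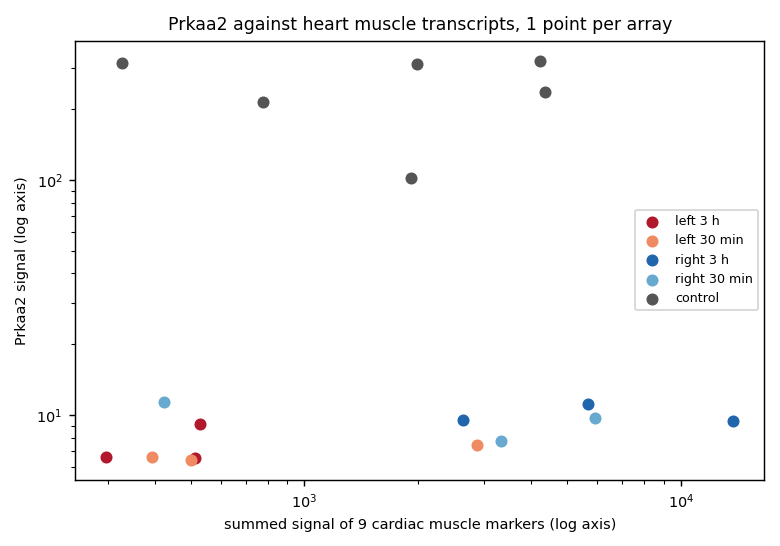
Prkaa2 signal (vertical log axis) against the summed signal of 9 cardiac muscle markers (horizontal log axis), 1 point per array, coloured by left 3 h, left 30 min, right 3 h, right 30 min and control. Operated and control lungs separate along the Prkaa2 axis, at 6.46 to 11.4 and at 102 to 321, while their cardiac sums overlap.

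Prkaa1, the other catalytic subunit, was called lower than control in both 3 h groups. Its brighter probe set read 545, 579 and 472 in left 3 h lungs, 684, 614 and 550 in left 30 min lungs, 521, 578 and 425 in right 3 h lungs and 619, 537 and 494 in right 30 min lungs, against 594 to 809 (median 680) in control lungs. All left 3 h and all right 3 h lungs were below the lowest control, and the 30 min lungs overlapped the controls. The log2 difference from control was -0.37 ± 0.12 in left 3 h lungs (1.29-fold lower, adjusted p = 0.0266) and -0.44 ± 0.12 in right 3 h lungs (1.35-fold lower, adjusted p = 0.0183). It was -0.16 ± 0.12 in left 30 min lungs (adjusted p = 0.369) and -0.32 ± 0.12 in right 30 min lungs (adjusted p = 0.093).

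These changes are modest, and part of them is shared by the whole array. The median difference of all tested probe sets was -0.12 in left 3 h, -0.07 in left 30 min, -0.04 in right 3 h and -0.04 in right 30 min lungs, and relative to it Prkaa1 stood at -0.24 in left 3 h and -0.39 in right 3 h lungs. With median centring of every array, Prkaa1 passed in neither 3 h group (-0.20, adjusted p = 0.258 in left and -0.35, adjusted p = 0.0716 in right 3 h lungs), and without right 3 h replicate 3 the right-lung difference was -0.32 (adjusted p = 0.118). At left 3 h the call was lost without control replicate 4 or 6, without left 3 h replicate 1 or 3, under quantile scaling, and with the cardiac marker level as a covariate.

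The other Prkaa1 probe set, too dim in every lung for the test, did not share this pattern. It read 72.0, 45.6 and 61.8 in left 3 h, 31.2, 52.8 and 34.9 in left 30 min, 56.3, 45.9 and 67.3 in right 3 h and 42.8, 42.2 and 53.7 in right 30 min lungs, against 36.2 to 60.1 (median 47.1) in control lungs. All operated groups overlapped the control range. In a fit of all probe sets without the brightness filter its difference from control was 0.23 in left 3 h lungs (95% interval -0.06 to 0.53, adjusted p = 0.245) and 0.18 in right 3 h lungs (-0.12 to 0.48, adjusted p = 0.461), opposite in sign to the brighter probe set. The lower Prkaa1 at 3 h thus rests on 1 of its 2 probe sets.

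Prkag1, the nucleotide-binding γ1 subunit, was called lower only in left 3 h lungs among the 4 comparisons with control. Its signal was 644, 752 and 980 in left 3 h, 920, 847 and 1093 in left 30 min, 950, 827 and 903 in right 3 h and 881, 909 and 957 in right 30 min lungs, against 872 to 1152 (median 1005) in control lungs. Left 3 h replicates 1 and 2 lay below every control lung, and left 3 h replicate 3 at 980 lay inside the control range. The log2 difference from control was -0.35 ± 0.12 in left 3 h lungs (1.28-fold lower, adjusted p = 0.0333), -0.08 in left 30 min (adjusted p = 0.686), -0.17 in right 3 h (adjusted p = 0.369) and -0.13 in right 30 min lungs (adjusted p = 0.531).

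Left and right lungs at 3 h differed in Prkag1 by -0.19 ± 0.14 (95% interval -0.49 to 0.12, adjusted p = 0.518), so a difference between the sides was not shown. Centred on the array medians, the left 3 h difference was -0.19 (adjusted p = 0.19), and without left 3 h replicate 1 it was -0.22 (adjusted p = 0.246). The call was also lost without left 3 h replicate 2, without control replicate 1, 2 or 4, with only the 2 groups compared (adjusted p = 0.0512) and with the cardiac marker level as a covariate (adjusted p = 0.0959).

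Prkab1, the β1 scaffold subunit, passed in no comparison. Its signal was 1143, 1377 and 1090 in left 3 h, 980, 1025 and 1305 in left 30 min, 1107, 1341 and 1104 in right 3 h and 1065, 1382 and 1181 in right 30 min lungs, against 957 to 1224 (median 1037) in control lungs. Every operated group overlapped the controls. The log2 difference from control was 0.17 in left 3 h lungs (95% interval -0.09 to 0.43, adjusted p = 0.305), 0.04 in left 30 min (-0.22 to 0.30, adjusted p = 0.849), 0.15 in right 3 h (-0.12 to 0.41, adjusted p = 0.44) and 0.17 in right 30 min lungs (-0.09 to 0.44, adjusted p = 0.384). A p above the threshold does not show that Prkab1 was unchanged, and the intervals give the sizes left possible.

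Prkab2, the β2 subunit, was dim in all lungs and below the filter. It read 98.1, 86.0 and 87.0 in left 3 h, 63.7, 74.0 and 72.8 in left 30 min, 80.3, 79.8 and 64.6 in right 3 h and 58.8, 81.1 and 98.2 in right 30 min lungs, against 47.3 to 127 (median 82.3) in control lungs. The left 3 h lungs lay above all right 3 h and all left 30 min lungs but inside the control range. In the unfiltered fit Prkab2 was 0.21 higher in left than right lungs at 3 h (95% interval -0.21 to 0.63, adjusted p = 0.68) and 0.28 higher at 3 h than at 30 min in left lungs (-0.14 to 0.70, adjusted p = 0.521). Of tested probe sets, 7.5% had every left lung above every right lung at 3 h, and 9.12% had every left 3 h lung above every left 30 min lung. Against control the Prkab2 adjusted p was 0.687 in left 3 h, 0.573 in left 30 min, 0.789 in right 3 h and 0.912 in right 30 min lungs.

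Stk11, whose product LKB1 phosphorylates the α subunits, was read by 2 dim probe sets, both below the filter in every lung. The first read 57.3, 31.0 and 65.4 in left 3 h, 61.6, 42.7 and 57.8 in left 30 min, 74.6, 37.9 and 51.0 in right 3 h and 61.5, 53.9 and 62.7 in right 30 min lungs, against 41.9 to 81.3 (median 47.7) in control lungs. Operated and control lungs overlapped throughout, and the unfiltered differences from control lay between -0.09 (left 3 h, 95% interval -0.49 to 0.31) and 0.09 (right 30 min, -0.31 to 0.48). The second read 5.29 to 17.8 (median 13.2) over the 12 operated lungs, against 12.8, 15.2, 15.5, 23.4, 55.9 and 91.5 in control lungs. Its group means were 13.5 ± 0.533 in left 3 h, 10.1 ± 4.22 in left 30 min, 12.1 ± 5.81 in right 3 h and 13.6 ± 4.26 in right 30 min lungs, against 35.7 ± 31.7 in control lungs. The wide control spread comes from 2 lungs, and the adjusted p was 0.196 in left 3 h, 0.135 in left 30 min, 0.197 in right 3 h and 0.29 in right 30 min lungs. Its unfiltered difference from control was -0.52 in left 3 h (95% interval -1.11 to 0.08) and -0.66 in left 30 min lungs (-1.25 to -0.07). It was -0.58 in right 3 h (-1.18 to 0.01) and -0.52 in right 30 min lungs (-1.12 to 0.07). For the upstream kinase, then, no difference from control passed the adjusted threshold at these low signals, which does not show that it was unchanged.

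Counted without Prkaa2, the members called against control at an adjusted p under 0.05 were 2 of 3 tested in left 3 h lungs, both lower, 0 of 3 in left 30 min, 1 of 3 in right 3 h, lower, and 0 of 3 in right 30 min lungs. Over all tested probe sets, 23.9% were called lower in left 3 h, 11.2% in left 30 min, 13.2% in right 3 h and 7.29% in right 30 min lungs, and 37.8%, 19.9%, 21.4% and 13.4% were called in either direction. Every lung below every control, the pattern of Prkaa1 in both 3 h groups, was shown by 22.6% of tested probe sets in left 3 h and 15.3% in right 3 h lungs. A call is therefore common in these comparisons, and 3 genes are too few to set apart from that background.

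The split of all calls depended on the scaling. It was 1456 higher and 2521 lower in left 3 h lungs, against 2073 and 1336 with arrays centred on their medians, and 916 and 1183, against 1185 and 721, in left 30 min lungs. For right 3 h lungs it was 868 and 1387, against 1188 and 937, and for right 30 min lungs 639 and 768, against 761 and 575. Between operated groups 0 of the 3 tested members other than Prkaa2 were called by limma, in left against right lungs at 3 h (2.28% of all probe sets called) and 30 min (0.038%), in 3 h against 30 min in left (3.47%) and right lungs (0.199%), and in the change of the left-right difference (0.228%). At an unadjusted limma p under 0.05, 0 of these tested members passed as well. Nearest was Prkag1 in left lungs at 3 h against 30 min (-0.27 ± 0.14, adjusted p = 0.273).

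**Figure D3:**
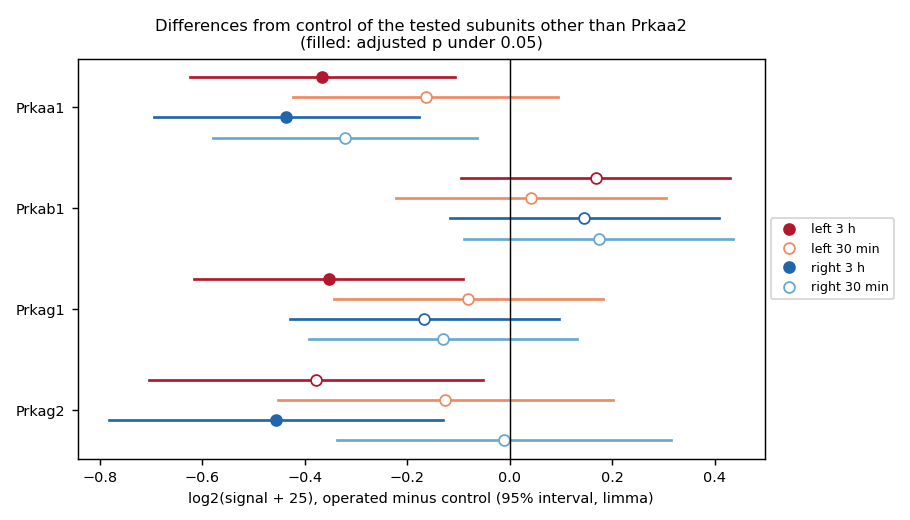
Log2(signal + 25) difference from control (horizontal axis) of Prkaa1, Prkab1, Prkag1 and Prkag2 in left 3 h, left 30 min, right 3 h and right 30 min lungs, with limma 95% intervals and filled points where the adjusted p is under 0.05. Prkaa1 is filled in both 3 h groups, Prkag1 in left 3 h and Prkag2 in right 3 h lungs, and Prkab1 lies at 0.04 to 0.17 with intervals that cross 0.

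Of the AMPK subunits outside the set, Prkag2 (γ2, known from heart) was measured. Its signal was 134, 143 and 149 in left 3 h, 192, 143 and 190 in left 30 min, 141, 172 and 96.0 in right 3 h and 166, 179 and 230 in right 30 min lungs, against 153 to 224 (median 203) in control lungs. The left 3 h lungs lay below all controls without a call (-0.38 ± 0.15, adjusted p = 0.0631), and the right 3 h lungs overlapped the controls yet were called lower (-0.46 ± 0.15, adjusted p = 0.0442). That call was lost in 15 of 27 alternative settings. Differences at 30 min were -0.13 in left and -0.01 in right lungs.

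To see what the wider pathway did, 9 lists of AMPK-related genes were counted, each gene standing by its brightest tested probe set. Of 74 tested genes, 8 were called higher and 13 lower in left 3 h lungs (10.8% and 17.6%, against 13.5% and 24.1% of all 7728 genes), and 6 and 6 in left 30 min lungs (8.11% each, against 8.64% and 9.52%). In right 3 h lungs 7 were higher and 7 lower (9.46% each, against 7.75% and 12.6%), and in right 30 min lungs 6 and 3 (8.11% and 4.05%, against 5.93% and 6.33%). Several of these shares lie close to those of all genes. The gaps were not tested, and no pattern by side is read from them. Of the 56 single calls against control, 19 held in all 27 alternative settings. For each other call the number of settings in which it was lost is given.

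Among upstream kinases and LKB1 partners, 0 of 5 tested genes were called higher in any group. Strada, the pseudokinase partner of LKB1, was lower in left 3 h lungs (-0.44 ± 0.12, adjusted p = 0.0102, lost in 3 settings), as was Camkk1, a calcium-dependent AMPK kinase (-0.49 ± 0.18, adjusted p = 0.0378, lost in 11). Cab39, the scaffold of the LKB1 complex, was lower in left 30 min lungs (-0.31 ± 0.09, adjusted p = 0.0288, lost in 5). The list medians were -0.20 in left 3 h, 0.04 in left 30 min, -0.06 in right 3 h and 0.02 in right 30 min lungs, against medians of all genes of -0.13, -0.06, -0.05 and -0.04.

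AMPK-related kinases, most of which share the LKB1 input, included 2 clear rises. Mark2, a kinase of microtubule-binding proteins, reached 1047 to 1197 in left 30 min and 1005 to 1090 in right 30 min lungs, against 476 to 613 in control lungs. It was called higher in both 30 min groups (1.05 ± 0.14, adjusted p = 9.2e-05 in left and 0.94 ± 0.14, adjusted p = 0.00035 in right lungs). Mark2 read 693 to 858 in left 3 h lungs (0.47 ± 0.14, adjusted p = 0.0149, lost in 2 settings), and in right 3 h lungs it ranged from 484 to 839 without a call.

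Mark3, a close relative, read 1061 to 1139 in left 3 h and 936 to 1081 in right 3 h lungs, against 655 to 831 in control lungs (0.61 ± 0.10, adjusted p = 0.00023 and 0.49 ± 0.10, adjusted p = 0.0024). Its calls in left 30 min (0.67, adjusted p = 0.00023) and right 30 min lungs (0.42, adjusted p = 0.0111) came with signals of 1014 to 1272 and 891 to 1003, and each was lost in 1 setting. Snrk was lower in left 30 min lungs (-0.62 ± 0.14, adjusted p = 0.0046), a call kept with any 1 array left out. It was lost in 1 setting, without the 3 arrays of high actin ratio, where left 30 min keeps 1 array. Over the alternatives the difference ran from -0.78 to -0.28. In all, 2 of 7 tested genes of the list were higher and 0 lower in left 3 h, 2 and 1 in left 30 min, 1 and 0 in right 3 h and 2 and 0 in right 30 min lungs. The list medians were 0.09, 0.19, 0.20 and 0.05 in that order.

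Of 16 tested direct AMPK substrates, 1 was higher and 4 lower in left 3 h, 2 and 0 in left 30 min, 1 and 2 in right 3 h and 1 and 1 in right 30 min lungs, with medians of -0.15, -0.03, -0.05 and 0.05. The 4 lower in left 3 h lungs stand beside 24.1% of all genes called lower there, so calls of this number are common. Pfkfb3, the glycolysis-activating kinase that makes fructose-2,6-bisphosphate, read 1439 to 2452 in left 3 h, 1664 to 2514 in left 30 min, 758 to 1787 in right 3 h and 979 to 1849 in right 30 min lungs, against 311 to 997 in control lungs. Left lungs were called higher at both times (1.61 ± 0.33, adjusted p = 0.0013 at 3 h and 1.80 ± 0.33, adjusted p = 0.0012 at 30 min). Right lungs were called higher too (1.11, adjusted p = 0.0244 at 3 h and 1.23, adjusted p = 0.0212 at 30 min). The call at 3 h was lost without right 3 h replicate 1 or 3 and with the cardiac covariate, and that at 30 min without right 30 min replicate 1 or 2.

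Tsc2, the GTPase-activating brake on mTOR complex 1, was lower than control at 3 h on both sides, with signals of 295 to 409 in left 3 h and 232 to 397 in right 3 h lungs, against 515 to 660 in control lungs. The differences were -0.71 ± 0.15 (adjusted p = 0.0014) and -0.82 ± 0.15 (adjusted p = 0.001). Ulk1, the kinase that starts autophagy, was lower in right 3 h lungs, at 195 to 413 against 422 to 514 in control lungs (-0.79 ± 0.17, adjusted p = 0.0038). Its call in left 3 h lungs (-0.45, adjusted p = 0.0453) was lost in 14 of 27 settings. Klc2, a kinesin light chain, was lower in left 3 h lungs (-0.46 ± 0.11, adjusted p = 0.0041). Eef2k, the kinase that slows translation elongation, was lower there too (-0.72 ± 0.20, adjusted p = 0.0099), a call lost without left 3 h replicate 1. Foxo3, a forkhead transcription factor, was higher in left 30 min lungs (0.59 ± 0.15, adjusted p = 0.0108), a call lost in 2 settings that left out left 30 min replicate 1.

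Of 14 TSC and mTOR complex genes, 1 was higher and 4 lower in left 3 h, 0 and 0 in left 30 min, 1 and 2 in right 3 h and 0 and 2 in right 30 min lungs, with medians of -0.22, -0.05, 0.04 and -0.06. Apart from Tsc2, the left 3 h calls were Mtor itself (-0.40 ± 0.11, adjusted p = 0.0084, lost in 2 settings), the mTOR inhibitors Akt1s1 (-0.33, lost in 6) and Deptor (-0.45, lost in 4), and the translation repressor Eif4ebp1 (0.41 ± 0.13, adjusted p = 0.018, lost in 2). With median centring Mtor, Akt1s1 and Deptor did not pass. Tsc1, the partner of Tsc2, was lower in right 3 h lungs (-0.56 ± 0.15, adjusted p = 0.0141, lost in 2), and Rheb, the GTPase that both act on, was higher there (0.31 ± 0.09, adjusted p = 0.0258, lost in 5). In right 30 min lungs Tsc2 (-0.52, adjusted p = 0.0275, lost in 4) and Tsc1 (-0.47, adjusted p = 0.0455, lost in 16) were lower.

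Of 18 autophagy genes, 1 was higher and 3 lower in left 3 h, 0 and 2 in left 30 min, 1 and 1 in right 3 h and 1 and 0 in right 30 min lungs, with medians of 0.02, -0.10, -0.03 and -0.15. Pik3c3, the lipid kinase of early autophagosomes, read 206 to 264 in left 3 h lungs, against 323 to 395 in control lungs (-0.55 ± 0.11, adjusted p = 0.0015). Atg7, which activates ubiquitin-like proteins of autophagy, was higher in right 3 h lungs (0.44 ± 0.11, adjusted p = 0.0079), and its call in right 30 min lungs (0.33, adjusted p = 0.0489) was lost in 21 settings. Atg13 was lower (-0.72 ± 0.19, adjusted p = 0.0072) and Gabarapl1 higher (0.63 ± 0.17, adjusted p = 0.0097) in left 3 h lungs, each call being lost in 1 setting. In left 30 min lungs Atg3 (-0.51, adjusted p = 0.0107, lost in 3) and Gabarap (-0.34, adjusted p = 0.0174, lost in 4), both of the machinery of ubiquitin-like conjugation, were lower.

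Enzymes of adenine nucleotides and phosphocreatine included a rise called in all 4 groups. Nt5e, the ectoenzyme that turns extracellular AMP into adenosine, read 325 to 604 in left 3 h, 266 to 351 in left 30 min, 289 to 462 in right 3 h and 286 to 330 in right 30 min lungs, against 134 to 194 in control lungs. All 12 operated lungs were above all controls, a pattern that 3.14% of tested probe sets showed. The differences were 1.25 ± 0.17 (adjusted p = 4.6e-05), 0.75 (adjusted p = 0.005), 1.01 (adjusted p = 0.00059) and 0.83 (adjusted p = 0.0039) in that order of groups. Each held in all 27 settings.

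Ampd3, an AMP deaminase known from red cells among other tissues, read 748 to 1113 in left 3 h and 643 to 1322 in left 30 min lungs, against 344 to 524 in control lungs (1.04 ± 0.22, adjusted p = 0.0016 and 1.17 ± 0.22, adjusted p = 0.0015). Ada, adenosine deaminase, was lower in all 4 groups. The differences were -0.61 in left 3 h (adjusted p = 0.0017), -0.42 in left 30 min (adjusted p = 0.0273), -0.47 in right 3 h (adjusted p = 0.016) and -0.53 in right 30 min lungs (adjusted p = 0.0125). Of these the left 3 h call held in all 27 settings, and the others were lost in 7, 4 and 1. Ckmt2, the mitochondrial creatine kinase of striated muscle, was higher in right 3 h lungs (1.55 ± 0.50, adjusted p = 0.0341), where the cardiac marker sums were 2643 to 13773. Its call was lost in 6 settings, the cardiac marker level as a covariate among them. Ak3 was higher there (0.49 ± 0.15, adjusted p = 0.0309, lost in 7) and the creatine kinase Ckb lower (-0.61 ± 0.17, adjusted p = 0.018, lost in 2), and the AMP deaminase Ampd2 was higher in right 30 min lungs (0.53 ± 0.16, adjusted p = 0.0375, lost in 9). Of 10 tested genes in the list, 2 were higher and 1 lower in left 3 h, 2 and 1 in left 30 min, 3 and 2 in right 3 h and 2 and 1 in right 30 min lungs, with medians of -0.16, -0.06, 0.41 and 0.06.

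**Figure D4:**
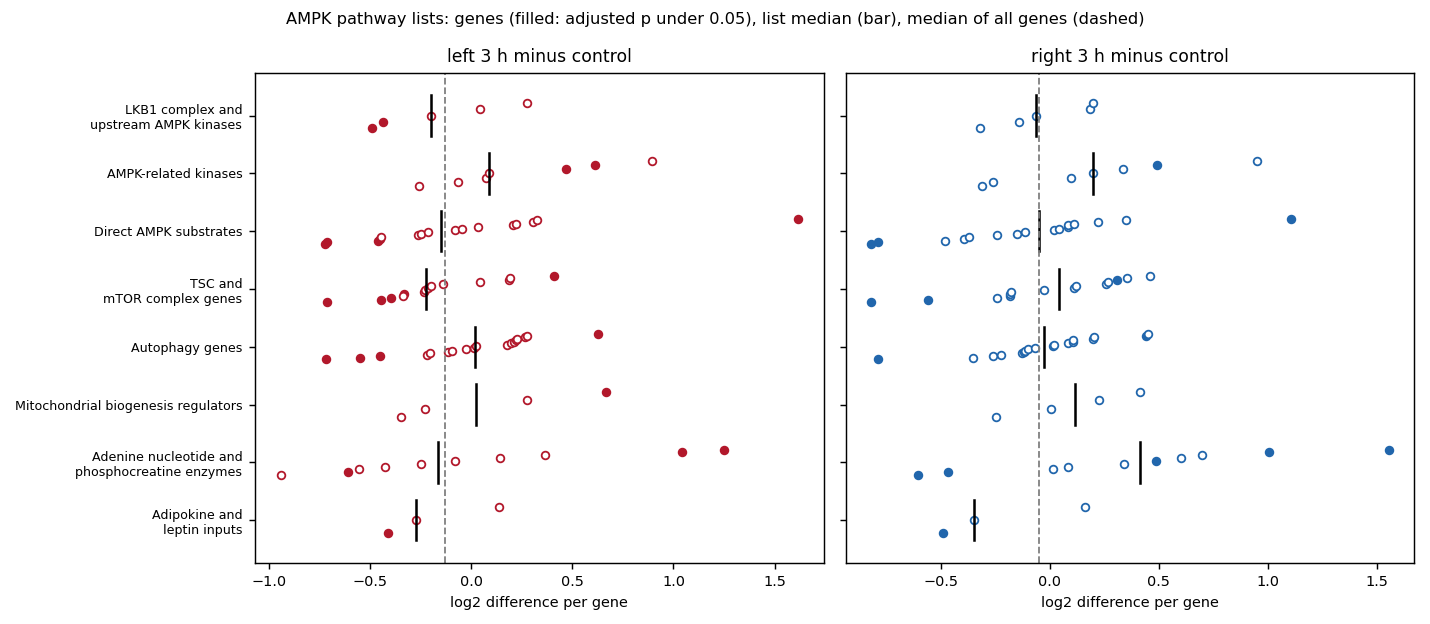
Log2 difference from control of each tested gene in 8 AMPK-related lists (rows) in left 3 h lungs and in right 3 h lungs, with filled points at an adjusted p under 0.05, a bar at the list median and a dashed line at the median of all genes. Filled points lie on both sides of 0 in 4 lists in left 3 h lungs, and Pfkfb3 at 1.61 and Nt5e at 1.25 are the highest there.

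The 2 remaining lists held few tested genes. Among 4 regulators of mitochondrial biogenesis, Ppard was higher in left 3 h lungs (0.67 ± 0.20, adjusted p = 0.0152, lost in 1 setting). Of 3 adipokine and leptin inputs, Appl1 was lower in left 3 h lungs (-0.41 ± 0.15, adjusted p = 0.0347, lost in 11) and Adipor2, an adiponectin receptor, was lower in left 30 min (-0.48, adjusted p = 0.026, lost in 5) and right 3 h lungs (-0.49, adjusted p = 0.0237, lost in 4).

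The genes whose signals were most like Prkaa2 over the 18 arrays, by Pearson correlation of log2(signal + 25), were Chtf8 (0.957), which belongs to a clamp loader of DNA replication, Rab14 (0.949), a GTPase of endosome traffic, Foxo1 (0.945), a forkhead transcription factor, Bmpr2 (0.939), the type II receptor for bone morphogenetic proteins, and Maoa (0.939), a monoamine-degrading enzyme. Their median signals in operated lungs were 335, 571, 132, 352 and 548, against 1077, 1500, 506, 1794 and 1279 in control lungs. The points share their arrays and the gap between operated and control lungs, so the correlations describe little beyond it. Within the 6 control lungs they were -0.27 to 0.25. Within the 12 operated lungs they were -0.08 to 0.22, where Prkaa2 can hardly vary.

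**Figure D5:**
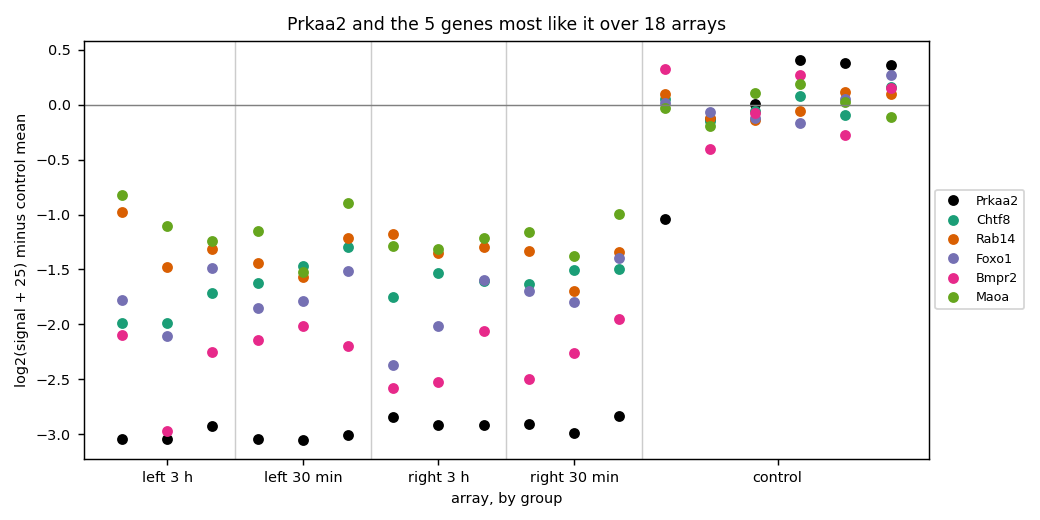
Log2(signal + 25) minus the control mean (vertical axis) of Prkaa2, Chtf8, Rab14, Foxo1, Bmpr2 and Maoa in each of the 18 arrays, ordered by left 3 h, left 30 min, right 3 h, right 30 min and control. Each of the 6 genes is lower in every operated lung than in any control lung, and Prkaa2, at group means of -3.03 to -2.89, lies farthest down.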

How the data were processed

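RNA of 18 rat lungs was read on 1-colour Affymetrix rat 230A arrays, and the values deposited by the authors are probe set signals, a linear intensity made with MAS5, per the submitters' processing notes (no version given there). The series' design text names GeneSpring 7.2 for the authors' later analysis. Each array's 2% trimmed mean was 500.1, so no further scaling was applied, and 57 control probe sets were left out. Genes were named from the platform annotation of 2016, which gave 1 symbol to 12783 probe sets, several to 312 and none to 2771. Entrez identifiers were checked against a RefSeq gene table (GRCr8), which changed 0 symbols.

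Signals were analysed as log2(signal + 25). The tests took the 10533 probe sets with 3 or more arrays above the 40th percentile of all signals (173.6). The model was limma's (lmFit and eBayes, limma 3.58.1, R 4.3.3) on group means over all 18 arrays, two-sided, with Benjamini-Hochberg adjustment over all tested probe sets of a comparison and a threshold of 0.05. Errors of differences are standard errors, and folds are on the log2(signal + 25) scale and understate changes of dim probe sets. Members below the filter were taken from the same fit without it. The fits were tested on simulated data. Counts and figures were made in Python 3.11.15 with pandas 2.3.3 and matplotlib 3.10.9.

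The members, the gene lists and the tests were chosen with earlier results of these data known. Every probe set of each member is described. The rule for 9 pathway lists named up to 3 passing genes per comparison with control, and all where at most 5 passed, which held throughout. The 5 genes most like Prkaa2, and the 5 most like Prkaa1, were named by Pearson correlation over all arrays.

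Each operated rat gave both lungs, but no label ties a replicate number to a rat. After the group means were removed, left and right lungs sharing a number correlated at 0.12, 0.31 and 0.15 in the 30 min groups. Those with different numbers correlated at -0.29 to 0.10 there. In the 3 h groups the values were -0.17, 0.07 and -0.15 for shared numbers, against -0.24 to 0.34 for different ones. These few values do not establish which lungs came from the same rat. The main fit therefore paired no lungs, and the number entered only as a block among the alternatives, for both times. Alternatives were other pseudocounts, no filter, other scalings, fits of the compared groups alone, each array left out in turn, 3 arrays of high actin ratio left out, a covariate of the mean cardiac marker level and the replicate number as a block.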

Additional observations from a re-analysis of the deposited data

Results flagged for a closer look

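Prkaa2 in control replicate 1 stood apart from the other control lungs, with a signal of 102 against 213 to 321 in the other 5. On the log2(signal + 25) scale its gap to the nearest control was 0.628 of the range of the 6 controls, just above the critical 0.625 of Dixon's test. Of 8 probe sets checked this way 1 was found, and chance marks about 1 group in 20. Without that lung the Prkaa2 difference from control was -3.21 in left 3 h, -3.24 in left 30 min, -3.10 in right 3 h and -3.12 in right 30 min lungs. The cause was not tested.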

How the results depend on the processing

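Of 2726 values recomputed for 101 results over 28 settings, 2470 stayed the same, 206 lost a call, 21 moved and 29 changed sign. A tested difference stayed the same if it kept its direction and its side of the threshold. A count of members did so if it was equal or close. For a Prkaa2 difference from control, the change had to be below the control SD of 0.554. The count of members called against control in left 3 h lungs (2) was 0 with arrays centred on their medians, 1 with quantile scaling, 1 with only the groups compared, 0 with the mean cardiac marker level as covariate, and 0 to 2 with 1 array left out. In right 3 h lungs (1) it was 0 with median centring and 0 to 1 with 1 array left out. Median centring used the medians of all probe sets, tested or not. It changed the median difference of the tested probe sets from -0.12 to 0.04 in left 3 h and from -0.04 to 0.04 in right 3 h lungs. The cause of the losses was not tested. The Prkaa2 difference from control depends on the pseudocount by construction: with 1 it was -4.81 in left 3 h, -4.90 in left 30 min, -4.41 in right 3 h and -4.48 in right 30 min lungs, and with 100 it was -1.66, -1.67, -1.62 and -1.63. With 1 array left out these differences ran from -3.21 to -2.92, -3.24 to -2.95, -3.10 to -2.81 and -3.12 to -2.83. All differences that changed sign were small and without a call. Against control in left 30 min lungs they were Prkab1 without the 3 arrays of high actin ratio (-0.051; -0.083 to 0.12 with 1 array left out) and Prkag1 with median centring (0.0083). Between left and right lungs at 3 h they were Prkab1 with quantile scaling (-0.014; -0.077 to 0.11) and Prkaa1 (-0.048 to 0.16), and at 30 min Prkag1 without the arrays of high actin ratio (-0.077; -0.050 to 0.13). Between 3 h and 30 min they were Prkaa2 in left lungs (-0.011 to 0.047), and in right lungs Prkab1 with median centring (0.0073; -0.12 to 0.071), Prkaa1 (-0.21 to 0.0028), Prkaa2 (-0.020 to 0.055) and Prkag1 (-0.080 to 0.017). In the change of the left-right difference they were Prkaa1 with the cardiac covariate (0.031; -0.21 to 0.0064) and Prkaa2 with quantile scaling (-0.0073), without the arrays of high actin ratio (-0.011) and with the cardiac covariate (-0.019; -0.030 to 0.047). With the replicate number as a block, 0 members were called between left and right lungs at 3 h, at 30 min and in the change between them, as without it. No block was fitted for the other comparisons. The numbers of all probe sets called, which set the background, ran over the alternatives from 2299 to 4507 in left 3 h (3977), 637 to 3020 in left 30 min (2099), 1304 to 2753 in right 3 h (2255) and 811 to 1904 in right 30 min lungs (1407) against control. They ran from 27 to 461 (240) between left and right at 3 h, 0 to 16 (4) at 30 min, 19 to 776 (366) between times in left and 0 to 60 (21) in right lungs, and 5 to 30 (24) for the change. Left 30 min calls were fewest without the 3 arrays of high actin ratio. That setting leaves 1 left 30 min array, so fewer arrays and RNA integrity cannot be told apart in it. Signals near the floor of the array limit Prkaa2 in operated lungs and the dimmer Stk11 probe set. Signals below the filter limit the other Stk11 probe set, Prkab2 and the dimmer Prkaa1 probe set, and 3 arrays a group limit the rest.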

Other observations

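Prkaa2 lies on chromosome 5, and the 3 nearest tested genes on each side by gene order (RefSeq, GRCr8) were Pde4b, Mier1 and Oma1 on one side and Plpp3, Usp24 and Ttc4 on the other. Of their 24 differences from control, 3 were called. Of all tested probe sets, 37.8% were called in left 3 h, 19.9% in left 30 min, 21.4% in right 3 h and 13.4% in right 30 min lungs. The 6 genes are too few to set apart from that background. Oma1, a protease of the inner mitochondrial membrane, was lower in left 3 h lungs (-1.04 ± 0.18, adjusted p = 0.00042), Pde4b, a cyclic AMP phosphodiesterase, was higher there (0.69 ± 0.19, adjusted p = 0.0091), and Plpp3, a lipid phosphatase, was lower in right 30 min lungs (-0.47 ± 0.14, adjusted p = 0.0394). None of the 6 neighbours had a called difference in all 4 operated groups, and the share of all probe sets with such calls was not counted.

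The 5 genes most like Prkaa1 over the 18 arrays were Cep350 (0.857), Cdk13 (0.838), Cxcr4 (0.837), C3h9orf78 (0.831) and Mef2c (0.825). Within the 12 operated lungs these correlations were 0.785, 0.825, 0.668, 0.603 and 0.678. Within the 6 control lungs they were 0.373, 0.141, 0.766, 0.833 and 0.524. The genes were picked for their correlation over these same 18 arrays. High values within a part of the arrays thus follow in part from the choice and do not show a link with Prkaa1. Cxcr4, the receptor for the chemokine Cxcl12, had a median signal of 689 in operated lungs, against 1433 in control lungs. For Mef2c, a transcription factor of muscle and endothelium, the medians were 84.6 and 237. The highest Mef2c signal in operated lungs was 151, below the filter signal of 173.6, which only control lungs exceeded.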
